A study of Mus musculus with 8 samples.

Results

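The receptors for the complement anaphylatoxins, for formyl peptides, for platelet activating factor and for metabolites form a set of 10 G protein-coupled receptor genes, namely C5ar1, C5ar2, C3ar1, Fpr1, Fpr2, Ptafr, Ffar2, Gpr35, Hcar2 and Gpr183. They were taken by symbol from an RNA-seq table of 38392 genes, and all 10 were found, each in 1 row. RNA was sequenced from eosinophils sorted from bone marrow and from small intestine of C57/BL6 wildtype mice, with 4 libraries per tissue. The mice were female according to the study, and the labels give no age. Bone marrow eosinophils were gated as CD11b+ Ly6G- Ly6C- SiglecF+ SSChi cells and intestinal eosinophils as CD11b+ MHC-II- SiglecF+ SSChi cells. Bone marrow was flushed and sorted directly, while intestinal cells were released by warm collagenase digestion and enriched on CD11b beads, so tissue and handling cannot be told apart. Libraries are named by their columns, which give the tissue and a number (BM_1, BM_3, BM_4 and BM_5, and SI_6, SI_7, SI_10 and SI_11). The methods describe replicates as separate mice, and the columns could be matched to a tissue but not to single samples.

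These receptors tell a leukocyte where to go and when to act. C5a and C3a are split from complement proteins during complement activation, formyl peptides are shed by bacteria and damaged mitochondria, and platelet activating factor is a phospholipid made by activated leukocytes, and all of them attract or activate granulocytes. Ffar2 senses short-chain fatty acids from bacterial fermentation, Hcar2 senses butyrate, niacin and the ketone body beta-hydroxybutyrate, Gpr35 responds to several proposed ligands such as kynurenic acid, and Gpr183 follows gradients of the oxysterol 7alpha,25-dihydroxycholesterol. Several of these ligands are made by gut bacteria or by cells of the intestinal wall.

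All libraries held between 11508002 and 21289164 reads in genes. Genes with reads numbered 19713 to 24592 in BM_1, BM_3 and BM_4, 30886 in BM_5 and 26624 to 33346 in the intestinal libraries. The eosinophil gene Siglecf, which encodes the sorted surface protein, was present in both tissues, with 489 to 642 normalised counts in bone marrow and 2646 to 3820 in small intestine. Normalised counts are reads after division by a library-specific size factor. The 11 eosinophil markers summed to 2808 to 4699 normalised counts in bone marrow and 45990 to 61803 in small intestine, with 6 higher and 5 lower, and Epx, eosinophil peroxidase, fell by 3.94. Markers of other cells moved with tissue. The 12 neutrophil precursor markers summed to 348854 to 442316 normalised counts in bone marrow and 1044 to 1274 in small intestine, and 11 of the 12 fell while Mmp8 rose, a call lost after median-centring or quantile normalisation. In each bone marrow library this sum exceeded that of the eosinophil markers, although the gate was Ly6G-. The 12 epithelial markers all rose, from 209.2 to 231 in bone marrow to 7080 in SI_10, 8766 in SI_11, 24417 in SI_7 and 54307 in SI_6, and among them Tff3 had 0 bone marrow reads. The 14 genes of the tissue dissociation response (1045 to 1398, then 89779 to 118198) and the 8 fibroblast and endothelial markers all rose as well. Of the latter, Pecam1, which leukocytes also express, averaged 384 normalised counts in bone marrow against 8162 in small intestine, while the other 7 summed to 9.96 to 88.3 and 284 to 976. Of 12 macrophage and monocyte markers 7 rose and 1 fell, against 4 and 4 after median-centring. The 1 that fell, Ly6c2, averaged 8268 normalised counts in bone marrow against 16.7 in small intestine, although the bone marrow gate was Ly6C-. The other 11 summed to 604 to 728 and 1866 to 2862. Among B and plasma cell markers, Jchain, an antibody-joining chain of plasma cells, rose, with 7.83 to 29.7 normalised counts in bone marrow, 353 in SI_10, 1028 in SI_11, 1998 in SI_7 and 2505 in SI_6 (6.13 ± 0.63, limma adjusted p = 0.000125), while Ighm, the most abundant of the list, had means of 1653 and 1627. Dendritic cell markers (181 to 272, then 177 to 258) and T and innate lymphoid markers (39.1 to 89.2, then 66.4 to 145) overlapped in their sums, with 2 of 8 higher in each and 2 and 1 lower. Of 8 mast cell and basophil markers 1 rose and 3 fell, and Kit carried most of their sum, with means of 3031 in bone marrow and 1189 in small intestine. The part of these cells and of the dissociation response in the receptor values was not tested. Calls of genes with few reads are less sure than their adjusted p, since on simulated data the fit gave false calls above the nominal rate among genes averaging under 10 reads. These genes also enter the shares of all genes past the threshold. In bulk libraries, fewer cells of a type and less RNA per cell cannot be told apart.

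The regions before the transcription starts are shown for 4 of the receptors, namely Ptafr, Gpr35 and C3ar1, which rose in small intestine, and Fpr2, which fell. Sequences are from RefSeq on GRCm38.p6, which gave entries for 9 of the 10 genes and none for Hcar2. They are written 5′ to 3′ on the strand of the gene. Capitals mark matches on either strand to 5 motifs of transcription factors. The letters searched for AP-1 were TGANTCA. For NF-kB they were GGG followed by CC with any 5 bases in between. The core of the AHR-ARNT site was searched as GCGTG. PU.1 was searched as GAGGAA. The GATA factors were searched as AGATAA. Bases covered by an annotated exon were left out at the end nearest to the start, and for Gpr35 the second of 2 listed starts is shown. The first Gpr35 start held no match to any of the 5 motifs. Neither did the only listed starts of C5ar1, Fpr1 and Gpr183, which are not shown. Among them Gpr183 also rose.
Ptafr (chr4:132563817-132564066, plus strand): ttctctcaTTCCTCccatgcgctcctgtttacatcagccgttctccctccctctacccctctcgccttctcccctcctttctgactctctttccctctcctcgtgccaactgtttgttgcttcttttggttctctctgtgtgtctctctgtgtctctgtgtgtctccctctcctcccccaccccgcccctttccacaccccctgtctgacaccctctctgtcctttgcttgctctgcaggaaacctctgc
Gpr35 (chr1:92978653-92978902, plus strand): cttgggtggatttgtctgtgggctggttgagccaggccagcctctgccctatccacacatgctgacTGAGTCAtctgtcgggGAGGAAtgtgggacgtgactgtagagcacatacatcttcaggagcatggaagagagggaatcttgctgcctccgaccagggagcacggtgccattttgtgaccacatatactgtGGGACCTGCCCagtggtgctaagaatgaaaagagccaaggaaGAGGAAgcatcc
C3ar1 (chr6:122856162-122856407, minus strand): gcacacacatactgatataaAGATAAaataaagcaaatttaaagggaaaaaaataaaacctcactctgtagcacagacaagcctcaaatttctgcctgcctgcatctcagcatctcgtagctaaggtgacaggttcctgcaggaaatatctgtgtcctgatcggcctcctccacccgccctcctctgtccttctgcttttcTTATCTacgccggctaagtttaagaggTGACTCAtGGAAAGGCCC
Fpr2 (chr17:17887574-17887823, plus strand): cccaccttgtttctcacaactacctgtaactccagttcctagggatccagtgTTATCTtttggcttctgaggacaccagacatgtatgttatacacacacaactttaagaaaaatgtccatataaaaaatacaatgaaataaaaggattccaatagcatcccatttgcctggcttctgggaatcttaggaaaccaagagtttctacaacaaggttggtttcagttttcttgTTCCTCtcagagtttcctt

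In the 250 bases before a start, the AP-1 letters were present for 3 of the 14 listed starts of the receptor genes, those of C3ar1, Ffar2 and Gpr35, and in 6.75% of all 32851 windows in the table. The NF-kB letters were present for 5 of 14 starts and in 45.8% of all windows, the AHR-ARNT core for 1 of 14, a start of Ffar2, and in 28.2%, the PU.1 letters for 6 of 14 and in 23.3%, and the GATA letters for 2 of 14 and in 9.99%. In C3ar1 the AP-1 match began 22 bases before the start and the NF-kB match 14 bases before it, with no overlap between them. In Gpr35 a pair of NF-kB matches overlapped each other, beginning 54 and 53 bases before the start. Starts of 1 gene can share sequence, as those of Ffar2 do. A match describes letters and is no evidence of binding.

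Small intestinal eosinophil libraries differed from those of bone marrow in 6 of the 10 receptors, of which Hcar2, Ptafr, Gpr35, C3ar1 and Gpr183 rose and Fpr2 fell (limma adjusted p between 1.81e-07 and 0.000760). C5ar1, C5ar2, Ffar2 and Fpr1 did not pass the threshold of 0.05. Over all genes 34.9% passed, 22% higher and 12.9% lower, and over the 16215 genes averaging 10 or more reads 72.9% passed, 39.2% higher and 33.7% lower, so the number of receptors past the threshold says little by itself. The tissues did not overlap for 6 receptors, against 34.3% of all genes. That share includes genes with few or no reads and was not computed for genes averaging 10 or more reads. The 6 thus say little by themselves. The sizes of the differences set the receptors apart from each other. On the log2 scale of the deposited values, small intestine minus bone marrow, they ran from 8.83 for Hcar2 to -2.11 for Fpr2. The median was 2.56 over the 10 receptors, 0.37 over all genes and 0.12 over the genes averaging 10 or more reads, among which are 9 of the receptors.

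**Figure D1:**
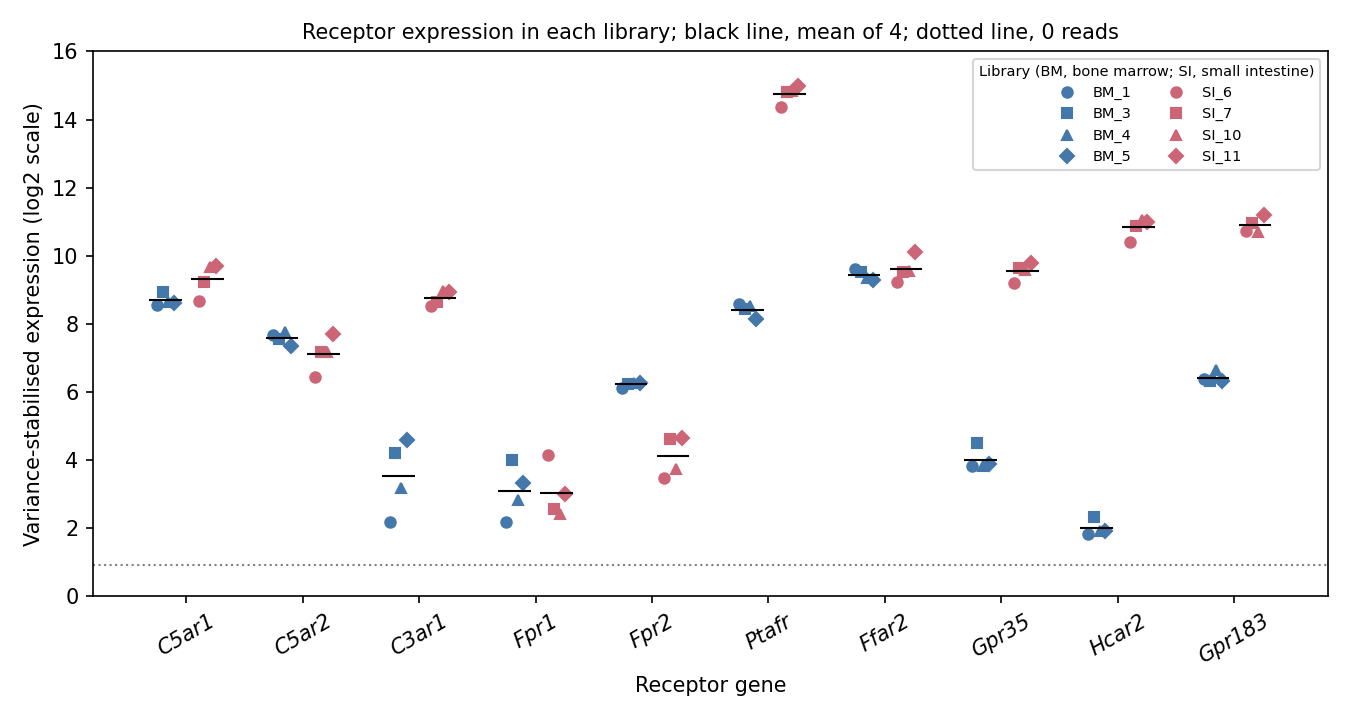
Variance-stabilised expression on a log2 scale (y axis) of each of the 10 receptor genes (x axis) in the 4 bone marrow (blue) and 4 small intestine (red) libraries, with a symbol per library, the mean of 4 as a black line and the value of 0 reads as a dotted line. The tissues are apart for C3ar1, Fpr2, Ptafr, Gpr35, Hcar2 and Gpr183, and overlap for C5ar1, C5ar2, Fpr1 and Ffar2.

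Ptafr, the receptor for platelet activating factor, was the dominant receptor of the set in small intestine. It had 383, 346, 362 and 278 normalised counts in BM_1, BM_3, BM_4 and BM_5, and 21119.6, 28552.5, 29161 and 32655 in SI_6, SI_7, SI_10 and SI_11. All intestinal libraries were thus far above all bone marrow libraries, and the ratio of the means was 81.5. The difference was 6.32 ± 0.21 (limma, difference ± SE, adjusted p = 5.06e-07), the 215th largest rise of 38392 genes. Per kb of exon, Ptafr (ENSMUSG00000056529; GRCm38 chromosome 4, 132564067 to 132582683, plus strand) ranked 5314th among all genes in bone marrow and 50th in small intestine.

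The enzymes that make and break platelet activating factor changed in both directions, and all 8 of the list passed the threshold, 5 higher and 3 lower, with a median difference of 1.49. Pla2g7, the secreted enzyme that inactivates the lipid, had 25.3 to 46.3 normalised counts in bone marrow and 29144 to 40536 in small intestine, a difference of 9.86 ± 0.24 (limma adjusted p = 1.68e-07). Lpcat2, which makes the lipid in stimulated leukocytes, rose by 3.89 ± 0.19, and Pla2g4a, the phospholipase that releases its precursor, rose by 2.50 ± 0.20. Lpcat1, a related acyltransferase, fell from 904 ± 63.7 to 215 ± 57.3 normalised counts (mean ± SD, n = 4 each), and the intracellular acetylhydrolase Pafah2 fell from 375 ± 54.2 to 66.3 ± 35.7. Pafah1b1 rose by 0.78, a call that was lost with quantile normalisation and turned to -0.12, not past the threshold, after median-centring.

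Hcar2 had the largest difference of the 10. It was nearly absent from bone marrow, with 1 read in BM_1, 3 in BM_3, 1 in BM_4 and 1 in BM_5, and had 1232, 1364, 1947 and 1710 reads in SI_6, SI_7, SI_10 and SI_11. The difference was 8.83 ± 0.22 (limma adjusted p = 1.81e-07), the 26th largest rise of all genes. From the 6 bone marrow and 6253 intestinal reads the pooled ratio was 1522, with an exact 95% interval of 699 to 4150 that covers counting error only. Hcar2 (ENSMUSG00000045502; chromosome 5, 123863570 to 123865499, minus strand) has a single exon. Its neighbour Hcar1, the lactate receptor, had 6 reads over the bone marrow and 35 over the intestinal libraries (1.91 ± 0.54, limma adjusted p = 0.0233), so it averaged under 10 reads, and this call was lost after median-centring or quantile normalisation.

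Among the other metabolite receptors of the set, Ffar2 did not follow Hcar2, while Gpr35 rose as well. Ffar2 had 780, 735, 643 and 619 normalised counts in BM_1, BM_3, BM_4 and BM_5 and 600.4, 739, 753 and 1094 in SI_6, SI_7, SI_10 and SI_11. These ranges overlapped, and the difference of 0.17 (95% interval -0.36 to 0.69, limma adjusted p = 0.582) did not pass the threshold, with a sign that turned to -0.73 after median-centring. It was 0.0054 without SI_11 and 0.29 without SI_6. Centring over only the genes averaging 10 or more reads gave 0.10. Gpr35 rose from 10.7, 18.9, 10.5 and 11.2 normalised counts in BM_1, BM_3, BM_4 and BM_5 to 584, 796, 765 and 881 in SI_6, SI_7, SI_10 and SI_11. The tissues did not overlap, and the difference was 5.55 ± 0.24 (limma adjusted p = 1.43e-06). Ffar2 (ENSMUSG00000051314) lies on chromosome 7, 30818348 to 30823775, minus strand, and Gpr35 (ENSMUSG00000026271) on chromosome 1, 92950865 to 92986391, plus strand. Of the related fatty acid receptors, Ffar3 had 2 reads over the bone marrow and 22 over the intestinal libraries and did not pass (1.67 ± 0.67, limma adjusted p = 0.0900), while Ffar1, the long-chain fatty acid receptor, had 2 and 133 and rose by 4.19 ± 0.34.

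Gpr183, the oxysterol receptor, rose in all intestinal libraries. It had 80.4, 75.6, 95.7 and 76.2 normalised counts in BM_1, BM_3, BM_4 and BM_5 and 1710, 1996, 1674 and 2353 in SI_6, SI_7, SI_10 and SI_11. The ratio of the means was 23.6 and the difference 4.49 ± 0.20 (limma adjusted p = 1.61e-06), the smallest of the 5 rises. Gpr183 (ENSMUSG00000051212; chromosome 14, 121952551 to 121965195, minus strand) lies within Ubac2 on the opposite strand. They share 0 exon bases, and Ubac2 had 237 to 600 reads in a library. Of the 4 enzymes of its ligand, 3 had few reads. Over the 4 libraries of each tissue, Ch25h, which starts ligand synthesis, had 0 bone marrow reads and 9 intestinal reads, and Cyp7b1, the next enzyme, had 7, all in BM_5, and 29. Both passed the threshold (1.53 ± 0.31 and 2.02 ± 0.57, limma adjusted p = 0.00530 and 0.0245) but both averaged under 10 reads, both lost it with quantile normalisation, and Ch25h lost it after median-centring too. Hsd3b7, which degrades the ligand, did not pass (170 ± 30.4 and 191 ± 7.05 normalised counts, limma adjusted p = 0.478), nor did Cyp27a1 (15.5 ± 8.38 and 27.1 ± 23.5), and the median difference of the 4 enzymes was 0.99.

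**Figure D2:**
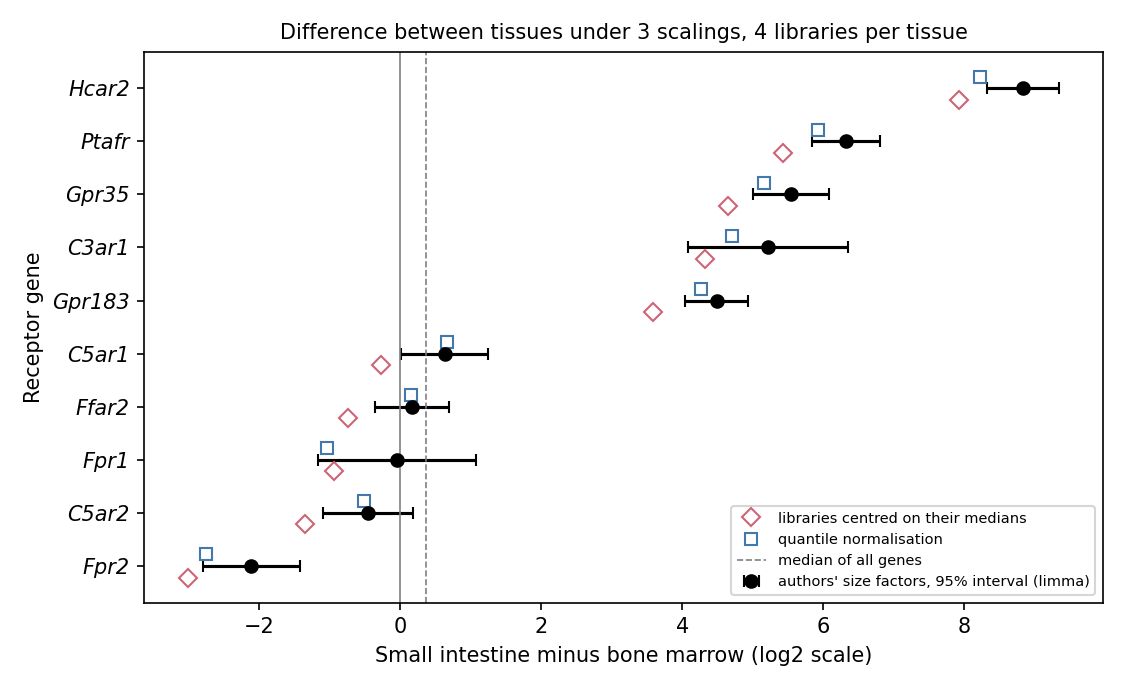
Difference between small intestine and bone marrow on the log2 scale (x axis) for each receptor (y axis), with the limma 95% interval as bars (black) and the values after median-centring (red diamonds) or quantile normalisation (blue squares), for 4 libraries per tissue. The 5 rises and the fall of Fpr2 keep their sign under each scaling, whereas C5ar1 and Ffar2 turn negative after median-centring.

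Among the anaphylatoxin receptors, the C3a receptor rose while the receptors for C5a stayed closer to their bone marrow levels. C3ar1 had 2 reads in BM_1, 23 in BM_3, 6 in BM_4 and 22 in BM_5, and 333, 283, 453 and 412 in SI_6, SI_7, SI_10 and SI_11. Its bone marrow libraries varied more than those of any other receptor of the set, with an SD of 1.08 on the log2 scale against 0.22 in small intestine. The difference was 5.22 ± 0.49 (limma adjusted p = 8.03e-05), and 4.76 to 5.57 when single libraries were left out. C3ar1 (ENSMUSG00000040552) lies on chromosome 6, 122847138 to 122856161, minus strand.

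C5ar1, the main activating receptor for C5a, had 375, 492, 395 and 389.5 normalised counts in BM_1, BM_3, BM_4 and BM_5, and 407, 603, 807 and 834 in SI_6, SI_7, SI_10 and SI_11. SI_6 lay within the bone marrow range, and the other 3 intestinal libraries lay above it. The difference of 0.63 (95% interval of a single gene 0.020 to 1.24) did not pass the threshold after adjustment (limma adjusted p = 0.106). Without SI_6 it was 0.85 and passed (limma adjusted p = 0.0116). C5ar2, the second C5a receptor, which does not couple to G proteins, had 199, 183, 211 and 161 normalised counts in BM_1, BM_3, BM_4 and BM_5, and 84.1, 140.1, 142 and 204 in SI_6, SI_7, SI_10 and SI_11. The difference was -0.45 (95% interval -1.09 to 0.18, limma adjusted p = 0.247), and -0.23 without SI_6. Both genes lie side by side on chromosome 7, minus strand, C5ar2 (ENSMUSG00000074361) at 16234585 to 16244154 and C5ar1 (ENSMUSG00000049130) at 16246743 to 16259540. An annotated small nuclear RNA gene, Gm26473, shares 127 bases of C5ar2 exon.

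Within a library, the ratio of 2 receptors does not depend on how libraries are scaled. Per kb of exon, C5ar1 was 2.61, 3.72, 2.59 and 3.36 times the level of C5ar2 in BM_1, BM_3, BM_4 and BM_5, and 6.71, 5.97, 7.87 and 5.67 times in SI_6, SI_7, SI_10 and SI_11. The tissues did not overlap, and the log2 ratio rose by 1.10 (2-sided exact permutation test, n = 4 each, p = 0.0286, the smallest this design can give, and 0.0429 adjusted over 3 ratios). In these libraries C5ar1 was thus higher relative to C5ar2 in small intestine, although neither gene passed the threshold alone. C5ar1 was 31.9 to 410 times the level of C3ar1 in bone marrow and 1.88 to 2.86 times in small intestine, and this log2 ratio fell by 5.14 (exact permutation p = 0.0286, adjusted 0.0429). The tissues did not overlap for C3ar1 alone, so this ratio restates its rise. Both adjusted values rest on the equal p of these 2 ratios, so that of C5ar1 to C5ar2 is weak.

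**Figure D3:**
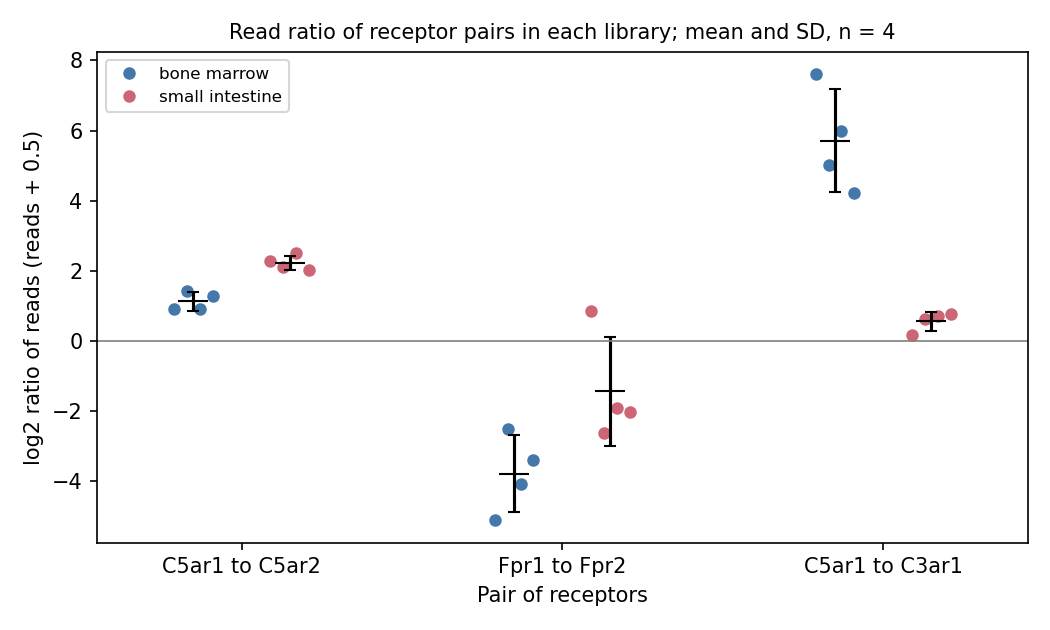
The log2 ratio of reads (y axis, reads plus 0.5) for 3 pairs of receptors (x axis) in the bone marrow (blue) and small intestine (red) libraries, with mean and SD of 4. C5ar1 to C5ar2 runs from 0.90 to 1.42 in bone marrow and from 2.03 to 2.50 in small intestine, C5ar1 to C3ar1 is lower in all intestinal libraries, and Fpr1 to Fpr2 overlaps between tissues.

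Complement genes around these receptors moved in both directions. Of 20 complement components, 9 rose, 4 fell and 7 did not pass, with a median difference of 1.43. After median-centring 4 were higher and 5 lower, so the balance of this list depends on the scaling. C3, the precursor of C3a, fell from 27911 ± 1882 to 389 ± 72.7 normalised counts (-6.17 ± 0.20, limma adjusted p = 3.79e-07), whereas Hc, which encodes C5, had 23 reads over the bone marrow and 71 over the intestinal libraries (2.16 ± 0.67, limma adjusted p = 0.0366), a call lost with quantile normalisation. Hc had 17.7 normalised counts in BM_5 and 0 to 1.96 in the other bone marrow libraries. C1s1, a protease of the classical pathway, rose by 3.86 ± 0.43 and C6, of the membrane attack complex, by 2.76 ± 0.79, from few reads. After C3, the highest mean of any component was that of properdin, Cfp, with 227 normalised counts in bone marrow, and 3 of the 9 that rose, C1qa, C1qb and C1qc, are also on the macrophage and monocyte list. Of these, C1qb and C1qc lost their calls after median-centring over all genes. They kept them when centring used only genes averaging 10 or more reads. Among 17 complement regulators and receptors for C3 fragments, 11 rose and 6 did not pass, with a median difference of 1.57, and 8 were higher and 1 lower after median-centring. Itgax, a subunit of complement receptor 4, rose by 9.41 ± 0.34 (19.1 ± 11.5 and 14221 ± 1866 normalised counts), Cd55, which breaks down C3 convertases, rose by 3.56 ± 0.26, and Cfi, which cleaves C3b, rose by 3.59 ± 0.71. In bone marrow Cfi had reads in BM_5 only (14.9 normalised counts). Itgam, the gene of CD11b, lost its call after median-centring, and Itgb2, its partner subunit, lost it there, where it turned to -0.17, and with quantile normalisation. Centring over only the genes averaging 10 or more reads kept the call of Itgam but not that of Itgb2.

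Both formyl peptide receptors were low in small intestine. Fpr2 had 65.9, 72.4, 72.7 and 73.4 normalised counts in BM_1, BM_3, BM_4 and BM_5, and 7.64, 20.8, 9.85 and 21.3 in SI_6, SI_7, SI_10 and SI_11. The bone marrow libraries were close together and all above the intestinal ones, and the difference was -2.11 ± 0.30 (limma adjusted p = 0.000760), a ratio of the means of 4.77. Fpr1, the high-affinity receptor for formyl peptides, had 2, 19, 4 and 7 reads in BM_1, BM_3, BM_4 and BM_5, and 13, 2, 2 and 4 in SI_6, SI_7, SI_10 and SI_11. At this depth no difference was detectable (-0.04, 95% interval -1.16 to 1.08, limma adjusted p = 0.959). The log2 ratio of Fpr1 to Fpr2 rose by 2.34 but overlapped between tissues in BM_3 and SI_7 (exact permutation p = 0.0571, adjusted 0.0571). Fpr2 (ENSMUSG00000052270; chromosome 17, 17887824 to 17893952, plus strand) and Fpr1 (ENSMUSG00000045551; 17876471 to 17883940, minus strand) belong to a cluster of related genes, and how reads matching several copies were counted is not given in the sources used here, so their values are uncertain. Fpr3 shares 48 exon bases with Fpr2 and had 2 reads in all.

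The neutrophil precursor markers were also lower in small intestine, by a median of 9.24 on the log2 scale. They summed to 433477, 442316, 397417 and 348854 normalised counts in BM_1, BM_3, BM_4 and BM_5. Fpr2 had 65.9, 72.4, 72.7 and 73.4 in the same libraries. Any link between Fpr2 and these markers was not tested. Some protein ligands of Fpr2 fell too. Camp, a cathelicidin of neutrophil granules that is on both lists, had 23142 to 32575 normalised counts in bone marrow and 21.9 to 36.0 in small intestine (-9.62 ± 0.22, limma adjusted p = 1.12e-07). Anxa1, which limits inflammation through Fpr2, had 9795 to 14650.2 and 48.1 to 87.7 (-7.29 ± 0.24, limma adjusted p = 4.68e-07), and Hebp1, which encodes a heme-binding protein that is the source of a peptide ligand, fell by 1.99. The remaining 4 of 7 ligand genes, among them the serum amyloid genes Saa1, Saa2 and Saa3, and all 5 other genes of the receptor family did not pass and had few reads, with a median difference of -0.40 over the ligands and 0.37 over the family.

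The mix of the 10 receptors differed between tissues. Summed per kb of exon, their level was 591 to 701 normalised counts per kb in bone marrow and 7715 to 11933 in small intestine. In bone marrow Ffar2 made up 38.2% ± 2.44 of this sum, C5ar1 24.7% ± 2.34 and Ptafr 14.4% ± 1.41 (mean ± SD, n = 4). In small intestine Ptafr made up 75.5% ± 0.34, Hcar2 9.43% ± 0.71 and Gpr183 6.67% ± 0.91, while Ffar2 made up 2.80% ± 0.35 and C5ar1 2.50% ± 0.41. Ptafr took 75.2% to 76.0% in each intestinal library, although the sum differed between them and was lowest in SI_6.

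**Figure D4:**
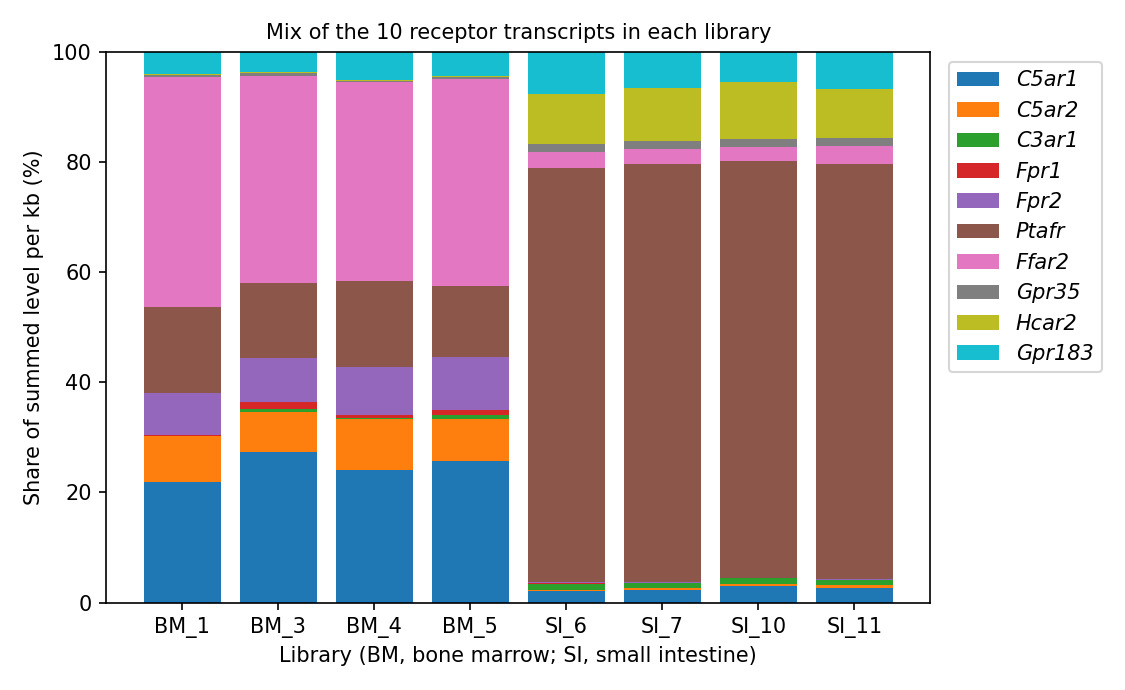
Share of each receptor in the summed level per kb of the 10 receptors (y axis, %) in each library (x axis), stacked to 100. Ffar2 and C5ar1 fill most of the bone marrow bars, and Ptafr fills 75.2% to 76.0% of the small intestine bars.

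By level per kb, the order in bone marrow was Ffar2 (249 ± 27.2), C5ar1 (161 ± 20.7), Ptafr (94.1 ± 12.5), Fpr2 (54.9 ± 2.71), C5ar2 (53.0 ± 6.14), Gpr183 (28.4 ± 3.25), Fpr1 (4.58 ± 3.54), Gpr35 (2.65 ± 0.84), C3ar1 (2.48 ± 1.999) and Hcar2 (0.60 ± 0.28). Fpr2 and C5ar2 overlapped over libraries, as did each neighbouring pair from Fpr1 down to Hcar2. In small intestine Ptafr (7663 ± 1334) led, followed by Hcar2 (958 ± 181), Gpr183 (669.6 ± 109), Ffar2 (285 ± 75.2), C5ar1 (258 ± 77.6), Gpr35 (156 ± 25.8), C3ar1 (101 ± 15.5), C5ar2 (40.0 ± 13.7), Fpr2 (11.5 ± 5.54) and Fpr1 (4.51 ± 4.22). Hcar2 overlapped with Gpr183, Ffar2 with C5ar1, C5ar1 with Gpr35, and Fpr2 with Fpr1.

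SI_6 was the lowest of the intestinal libraries for 8 of the 10 receptors, all except Fpr1 and Gpr183. It was lowest for 32.6% of all genes averaging 10 or more reads, and it held the most epithelial marker reads, 54307 normalised counts against 7080 to 24417 in the others.

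Of 18 other receptors for metabolites and lipids, 12 rose, 2 fell and 4 did not pass, with a median difference of 1.83. Gpr55, a receptor for lysophosphatidylinositol, rose by 8.30 ± 0.36 and Gpr132, a receptor for oxidised fatty acids and lactate, by 6.09 ± 0.22, to 6861 ± 1623 and 9344 ± 1445 normalised counts. Gpr84, the medium-chain fatty acid receptor, fell from 773 ± 63.1 to 21.3 ± 9.23 (-5.04 ± 0.29), and S1pr4, a sphingosine 1-phosphate receptor, fell by 2.44. After median-centring over all genes Gpbar1, Hcar1, Oxgr1 and S1pr1 lost their calls, and the first 3 of these averaged under 10 reads. Their calls were kept when centring used only genes averaging 10 or more reads. With quantile normalisation Gpbar1 and Hcar1 lost their calls too, while Oxgr1 and S1pr1 kept theirs.

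The signalling genes downstream were split. Among 21 G protein subunits and effectors 10 rose, 5 fell and 6 did not pass, with a median difference of 0.998. After median-centring over all genes 5 were higher and 7 lower, and Gna13, Gna15, Gnaq, Dock2 and Pik3r6 lost their calls. Those genes kept them when centring used only genes averaging 10 or more reads. Centred over all genes, Gnaq stood at 0.74 with limma adjusted p = 0.212, although its SE before centring was 0.17. Gng2, a gamma subunit, rose by 3.35 ± 0.22, Prex1, a Rac exchange factor driven by beta-gamma subunits, by 3.15 ± 0.21, and Gnai1 by 3.70 ± 0.38 from 2 reads over the bone marrow libraries. Gnai2 and Gnai3, the inhibitory alpha subunits that carry most chemoattractant signals in leukocytes, fell by 0.81 and 0.91, from 6150 ± 552 and 3937 ± 757 normalised counts to 3535 ± 565 and 2063 ± 156. Among 7 receptor kinases and arrestins, Grk5 rose by 4.33 ± 0.24, Arrb1, which encodes beta-arrestin 1, by 2.35 ± 0.18, and Grk3 fell by 1.34 ± 0.18, while the other 4 did not pass and the median difference was 0.36.

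**Figure D5:**
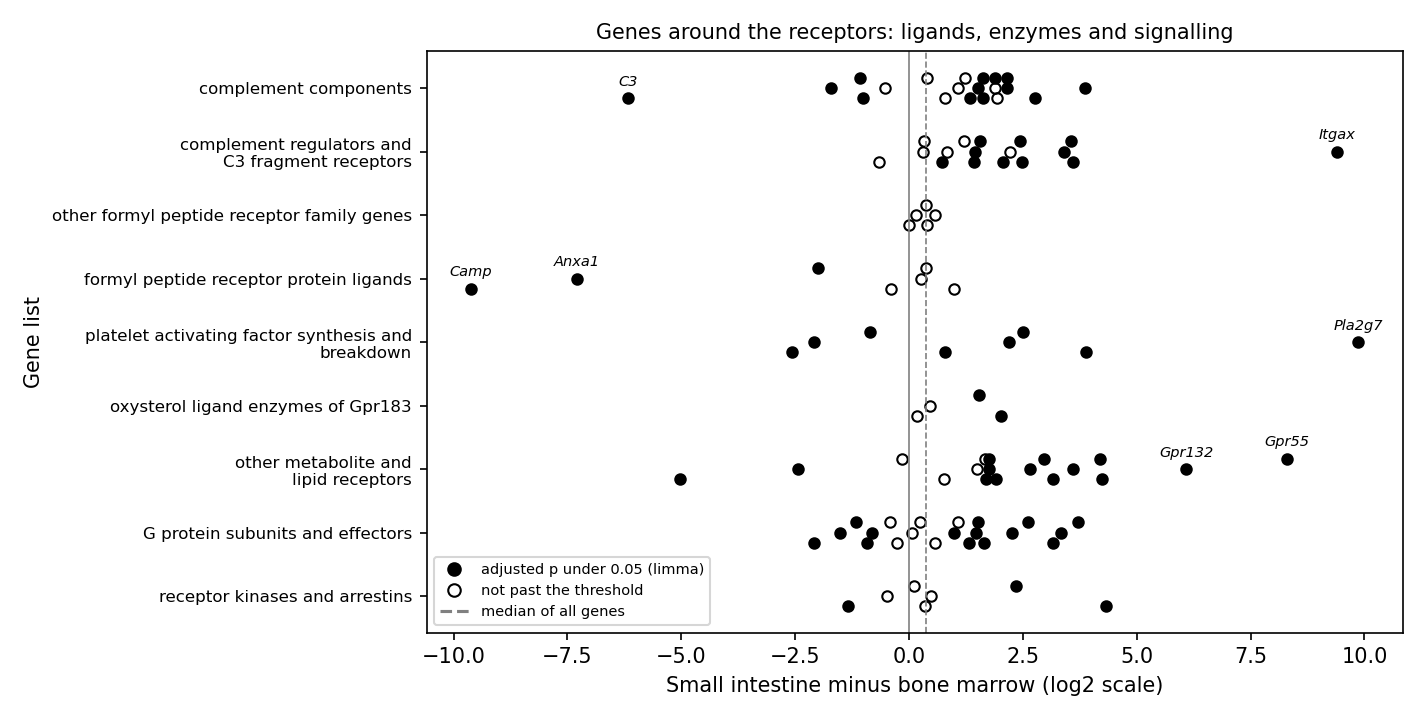
Difference between small intestine and bone marrow on the log2 scale (x axis) for the genes of 9 lists around the receptors (y axis), filled where the limma adjusted p was under 0.05 and open where it was not, with 4 libraries per tissue. Pla2g7 lies farthest to the right at 9.86 and Camp farthest to the left at -9.62.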

How the data were processed

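RNA-seq was performed on sorted eosinophils, 4 bone marrow and 4 small intestine samples. The authors made amplified cDNA libraries with single-end reads, aligned them to GRCm38 (Ensembl release 86) with nf-core/rnaseq to obtain gene counts, and deposited variance-stabilised values from DESeq2 (R 4.0.3) on a log2 scale. The aligner, strand setting and treatment of multimapping reads were not found in the sources used here and are not given.

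Inverting the transformation from the shared lowest value, 0.930, gave whole reads within 0.05 for 100% of genes. Totals were 11508002 to 21289164 reads, so genes with few reads, such as Fpr1, are imprecise. Column names gave a tissue but matched no single sample, so libraries keep their column names.

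Tissues were compared with limma 3.58.1 in R 4.3.3, using deposited values of all 38392 genes, without filter or covariate, 2-sided, with Benjamini-Hochberg adjustment over all genes and a threshold of 0.05. The authors fitted a DESeq2 count model, and limma replaced it because the deposited unit is log2. In simulated data tested with the same fit, false calls exceeded the nominal rate among genes averaging under 10 reads, where almost all of them fell, and small changes were often missed. Log2 ratios of reads plus 0.5 were compared with exact permutation tests over 70 assignments. Exon lengths and coordinates are from GENCODE M21 (GRCm38), which held all 38392 identifiers. Alternatives were voom, an intensity trend, median-centring, quantile normalisation, a filter at 10 reads, normalised counts plus 1 and leaving out each library. Median-centring over genes with at least 10 reads was added after seeing the data. The receptors, the lists and the tests were chosen with earlier results of these data known. The text names the 10 receptors, the 3 genes of each other list with the largest differences past the threshold, genes that the background names and, of marker lists, up to 3 genes of highest level. Named outside this rule, after their values were seen, are Pla2g4a, Lpcat1, Pafah1b1, Hc, C1qa, C1qb, C1qc, Cfp, Itgam, Itgb2, Saa1, Saa2, Saa3, Fpr3, Hsd3b7, Cyp27a1, Ffar1, Ffar3, Hcar1, Gpbar1, Oxgr1, S1pr1, S1pr4, Gnai2, Gnai3, Gna13, Gna15, Gnaq, Dock2, Pik3r6, Mmp8, Ly6g, Il5ra, Epx and Tff3. The other steps used Python 3.11.15 and its packages scipy 1.17.1, pandas 2.3.3, matplotlib 3.10.9 and numpy 2.4.6.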

Additional observations from a re-analysis of the deposited data

Results flagged for a closer look

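In 2 of 26 groups of 4 values, over the 10 receptors and 3 ratios in each tissue, 1 library stood apart from the other 3 by more than Dixon's test allows at its 95% level, where chance gives about 1 in 20. Fpr2 in bone marrow was lowest in BM_1, with a gap of 0.866 of the range, at 65.9 normalised counts against 72.4 to 73.4 in the others. Gpr35 in bone marrow was highest in BM_3, with a gap of 0.906 of the range, at 18.9 normalised counts (29 reads) against 10.5 to 11.2. Without BM_1 or BM_3 the calls of both genes were the same.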

How the results depend on the processing

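Hcar2, Ptafr, Gpr35, C3ar1, Gpr183 and Fpr2 kept their sign and passed the threshold in all 15 alternatives. Their differences ranged over all alternatives other than left-out libraries from 7.93 to 10.23, 5.42 to 6.34, 4.65 to 5.82, 4.32 to 5.79, 3.59 to 4.55 and -3.01 to -2.11. Median-centring lowered each difference by 0.90, moving the median of all genes from 0.37 to -0.53, and C5ar1 and Ffar2 thereby reversed to -0.27 and -0.73, neither past the threshold. Under it C5ar2 passed at -1.35 (adjusted p = 0.0152), so 2 receptors were lower, while 4285 genes were higher and 10216 lower, and 32 pathway genes were higher against 51. Gnaq and C1qb, with SE of 0.17 and 0.36 before median-centring, then stood at 0.74 and 0.73 with limma adjusted p of 0.212 and 0.224. Calls lost after median-centring over all genes can thus reflect a wider error as well as a smaller difference. Centring over only the genes averaging 10 or more reads moved the median of all genes less, to 0.31. There C5ar1 was 0.57, Ffar2 0.10 and C5ar2 -0.52 (limma adjusted p = 0.243, 0.799 and 0.286), so none of them passed or changed sign. C5ar1 passed with voom (0.62), with an intensity trend (0.63, adjusted p = 0.0145) and with the filter at 10 reads (0.63), in the last with fewer genes tested. For C5ar1 the adjusted p ranged from 0.0145 to 0.671 over these alternatives. Left-out libraries gave 0.50 to 0.85 for C5ar1, highest and past the threshold without SI_6, and -0.41 to 0.26 for Fpr1, which changed sign without BM_3, BM_5, SI_10 or SI_7 and never passed. The log2 ratio of Fpr1 to Fpr2 passed as a difference of deposited values (2.06) and with reads plus 5 (2.17), both adjusted p = 0.0286. The cause was not tested where none is named.

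The comparison was unpaired, because the sample titles number the bone marrow and intestinal samples without any number in common, as do the columns. Depth limits Fpr1, with 2 to 19 reads in a library, and the bone marrow levels of Hcar2, C3ar1 and Gpr35.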
